A study of Homo sapiens with 4 samples.

Results

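Aminoacyl-tRNA synthetase genes were examined in PANC-1, a human pancreatic ductal adenocarcinoma cell line, and in the knockdown clone PZT-2 derived from that line. The 37 genes were chosen by symbol from the gene names of the authors' table, and they are 37 of the 15209 genes with a value. Of them, 19 encode cytosolic enzymes, 16 mitochondrial enzymes and 2, GARS and KARS, enzymes of both compartments. All 37 passed the filter on low counts and were among the 15089 genes tested. The symbols are those of the table, and current names of most cytosolic genes end in 1 (AARS1 for AARS).

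The study asked what happens to pancreatic cancer cells that lose the histone variant H2A.Z. PZT-2 carries short hairpin RNAs against the transcripts of all H2A.Z isoforms and is 1 clone, whereas the PANC-1 cells compared with it here were wild type and not transduced. Each line was grown in DMEM with serum, taken at passages 12 to 13 and sequenced as 2 mRNA libraries. Libraries of cells with a scrambled hairpin are not analysed here, so a difference between the lines can belong to the knockdown, to the clone or to the transduction, and these cannot be told apart.

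Aminoacyl-tRNA synthetases join each amino acid to its tRNAs, which then bring it to the ribosome. Cytosolic and mitochondrial translation use mostly separate enzymes, all encoded in the nucleus. Several cytosolic enzymes are held together with the scaffold proteins AIMP1, AIMP2 and EEF1E1 in the multisynthetase complex. Many cytosolic synthetase genes are known targets of ATF4, the transcription factor that is made when the kinase GCN2 (EIF2AK4) senses uncharged tRNA.

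The recovered libraries held 12861486 and 15717578 estimated counts in PANC-1 and 13955522 and 14175665 in PZT-2. Levels are given below as normalized counts, in which edgeR's effective size of each library was divided out and rescaled to that of the average library, or as TPM (transcript abundance as a share of the library), which also account for transcript length. H2AFZ, the gene of H2A.Z.1, went from 6389 and 6034 normalized counts in PANC-1 to 2213 and 2258 in PZT-2, and its log2 fold change (PZT-2 against PANC-1) was -1.47 ± 0.056 (SE). H2AFV, the gene of H2A.Z.2, changed by -0.36 ± 0.057. Both were called lower, the direction the labels give. The epithelial keratins KRT8, KRT18 and KRT19 were abundant in both lines, at 12387 to 41929 normalized counts, and lower in PZT-2, while KRT7 and EPCAM lay between 82.1 and 142.9 and were not called. SOX9, the remaining marker of this list, was called higher in PZT-2, with a log2 fold change of 0.25. Of 12 markers of leukocytes, endothelium, fibroblasts, acinar cells and islets, 9 had no value, PECAM1 did not exceed 12.4, CD68 lay between 1578 and 1708, and COL1A1 fell from 494 and 531 to 170.1 and 135.5. In such bulk RNA, fewer cells of a type and less RNA per cell cannot be told apart.

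The PANC-1 libraries stood apart from each other in 1 respect that bears on these genes. Replicate 1 was above replicate 2 for all 10 genes of a list of ATF4 targets, by a median of 1.26 on the log2 scale, and for ATF4 itself by 0.72. TRIB3 had 4009 normalized counts in replicate 1 and 1190.2 in replicate 2, and ASNS, the asparagine synthetase, had 5039.8 and 2862. The PZT-2 replicates differed by a median of -0.02 over the same 10 genes. Results are therefore given with all libraries and, further on, without each one.

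Promoters of the synthetase genes were searched for the C/EBP-ATF response element, TGATGNAAN, to which ATF4 dimers are known to bind. RefSeq promoter sequences of GRCh38.p14, from 250 bases before to 50 bases after the start of transcription, were matched for 30 of the 37 genes, and both strands were read. The motif was in 8 of these 30 promoters and in 3.61% of all 35116 promoters of the table, and its core TGATGCAA was in 6 of the 30 and in 0.866% of all promoters. Every match to the core also matches the longer motif when its next base is inside the window. The matches are printed here because they fall on the genes that differed between the PANC-1 replicates and on genes that did not. Each line gives 29 bases in the direction of the gene, with the motif match in capitals, which reads as its reverse complement where the motif lies on the other strand.
MARS, chr12:57488053-57488081 (+): gccggttccgGTTGCATCAgcgagggatt
CARS, chr11:3057408-3057436 (-): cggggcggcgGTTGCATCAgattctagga
AARS, chr16:70289676-70289704 (-): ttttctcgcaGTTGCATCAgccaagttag
GARS, chr7:30594834-30594862 (+): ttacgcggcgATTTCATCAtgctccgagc
IARS, chr9:92293693-92293721 (-): ttttcagcgcGTTGCATCAcctccgtgcg
TARS, chr5:33440956-33440984 (+): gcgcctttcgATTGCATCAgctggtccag
NARS, chr18:57621804-57621832 (-): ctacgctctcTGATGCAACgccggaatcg
YARS2, chr12:32756076-32756104 (-): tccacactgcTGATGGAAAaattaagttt

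The first 7 of these belong to a list of 13 synthetase genes described as ATF4 targets, of which 10 had a promoter in the table. Of the other 24 synthetase genes, 20 had a promoter and YARS2 alone held the motif, without the core. The match lies next to the start of transcription in MARS, CARS, TARS, IARS and NARS, where its first base is at -5, -3, 2, -14 and 15 relative to the start, and farther upstream in GARS (-34), AARS (-188) and YARS2 (-197). A match describes the letters in the window and is not evidence of binding.

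Transcript levels of the synthetase genes ranged from 4.40 to 354 TPM in the mean over the libraries. Per length, GARS, which charges glycine tRNAs in both compartments, was the highest, followed by MARS (methionine) at 255, CARS (cysteine) at 228, KARS (lysine) at 193.6 and SARS (serine) at 187. At the other end were PARS2 at 6.42 TPM, TARSL2, a cytosolic threonyl-tRNA synthetase related to TARS, at 5.94 and the mitochondrial WARS2. Most neighbours in this order could not be separated, since the ranges of their 4 libraries overlapped for all but 7 neighbouring pairs. Mitochondrial enzymes were mostly below cytosolic ones, with SARS2 at 115.2 and IARS2 at 92.7 TPM the highest of them. Together the 19 cytosolic genes summed to 2517 and 2208 TPM in PANC-1 and 2090.4 and 2097 in PZT-2, and the 16 mitochondrial genes to 529 and 558 in PANC-1 and 531 and 542 in PZT-2. The cytosolic sum was thus lower in both PZT-2 libraries, with PANC-1 replicate 1 far above the other 3, whereas the mitochondrial sums overlapped.

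**Figure D1:**
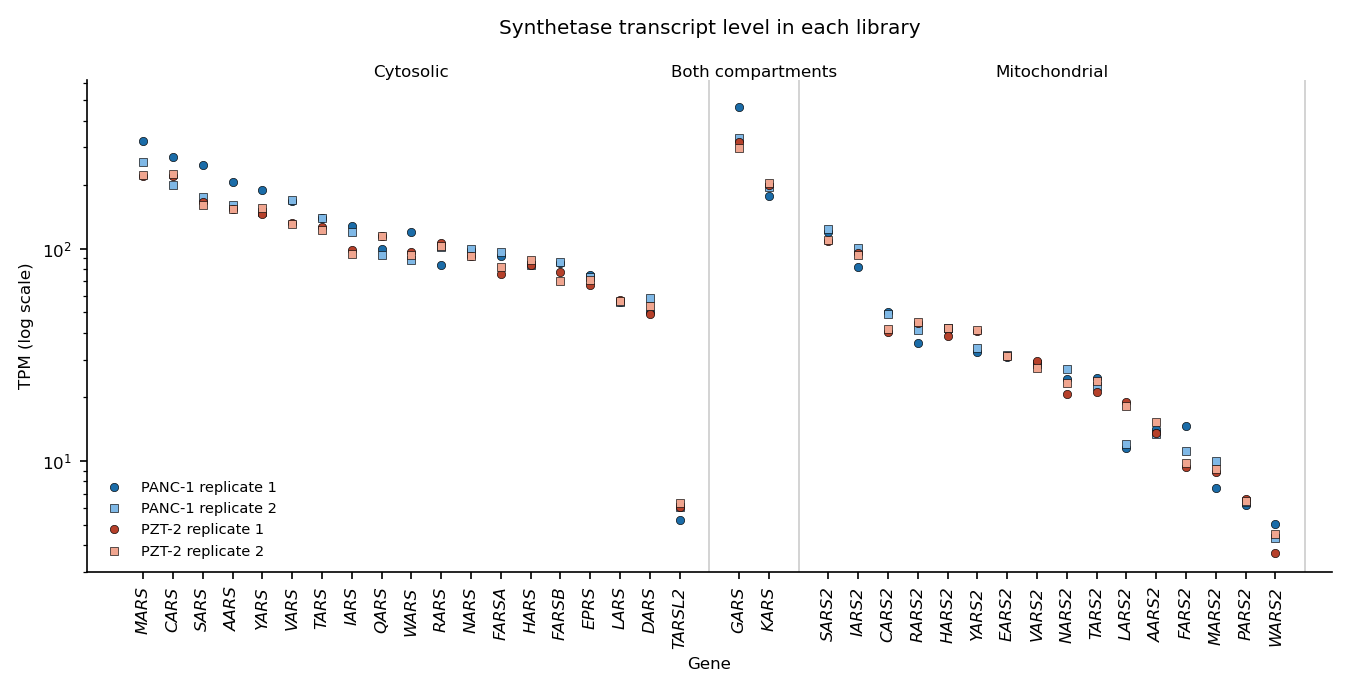
TPM of each synthetase gene (log scale) in the 4 libraries, by compartment and in order of the mean. PANC-1 replicate 1 lies above the other libraries for GARS, MARS, CARS, SARS, AARS, YARS and WARS, among others. Both PZT-2 libraries lie above both PANC-1 libraries for LARS2 and YARS2, which were called. In TPM the same holds for QARS, RARS, RARS2, KARS, LARS and PARS2, which were not called.

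PZT-2 was compared with PANC-1 to find which synthetase transcripts differ in the knockdown clone. Of the 37 genes, 8 were called lower in PZT-2 and 2 higher by edgeR's quasi-likelihood test at a Benjamini-Hochberg adjusted p under 0.05. Over all genes tested, 13.7% were called lower and 14.7% higher, and 28.4% were called in either direction. No test of the list was made. Called lower were the cytosolic MARS, IARS, VARS, FARSA, FARSB and TARS and the mitochondrial CARS2 and SARS2, and called higher were the mitochondrial LARS2 and YARS2. All called changes were small, between -0.44 and 0.60 on the log2 scale. In normalized counts, both PZT-2 libraries were below both PANC-1 libraries for 18 of the 37 genes, against 33% of all genes tested. They were above both for 4, against 33.3%. These numbers depend on the scale. In TPM, KARS, LARS, PARS2 and RARS were also above, although LARS was among the 18 genes below in normalized counts. The median log2 fold change was -0.13 over the 37 genes and 0.000736 over all genes tested.

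With 2 libraries a line, an exact permutation test could not go below p = 0.333, and the labels do not say whether the libraries of a line came from separate cultures, so the p-values measure the spread between these libraries. When TPM values were tested with limma instead, 62.1% of all called genes were higher in PZT-2, against 51.8% with edgeR, and 4 synthetase genes were called lower, against 9.58% of all genes, and 3 higher, against 15.7%.

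**Figure D2:**
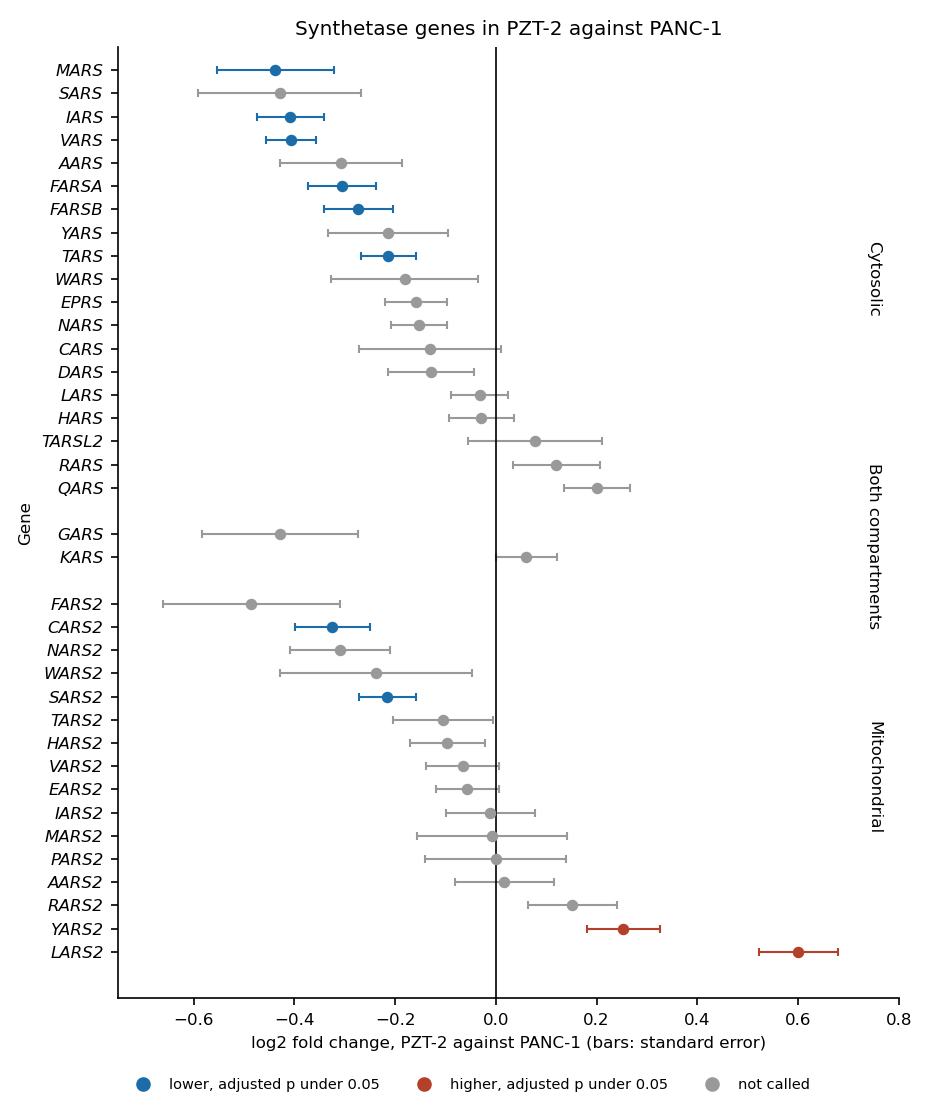
log2 fold change of each synthetase gene in PZT-2 against PANC-1 with its standard error, from edgeR, by compartment. Most cytosolic genes lie below 0, 6 of 19 called lower (13.7% of all genes tested), and LARS2 is farthest to the right at 0.60.

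Among the cytosolic enzymes, 6 of 19 were called lower by edgeR, against 13.7% of all genes tested. A fold change below 0 was found for 16 of 19, against 7524 of all 15089 genes, and the median of the 19 was -0.18. None of the 19 was called higher by edgeR (14.7% of all genes) or DESeq2, 1 (QARS) was higher at an unadjusted p under 0.05, and limma on TPM called that gene. VARS, which charges valine, had 5623 and 5524 normalized counts in PANC-1 and 4217 and 4191 in PZT-2. The PZT-2 libraries were below both PANC-1 libraries, and the replicates of each line lay close together. The log2 fold change of VARS was -0.41 ± 0.049 (SE; adjusted p = 0.00214 by edgeR's quasi-likelihood test). IARS, which charges isoleucine, had 4601 and 4164 in PANC-1 and 3360.4 and 3244 in PZT-2. It also showed no overlap between the lines, and its log2 fold change was -0.41 ± 0.066 (adjusted p = 0.00593, edgeR).

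FARSA and FARSB, the subunits of the cytosolic phenylalanyl-tRNA synthetase, changed together. FARSA had 1268 and 1286 normalized counts in PANC-1 and 992 and 1076 in PZT-2, which was a log2 fold change of -0.31 (adjusted p = 0.0180, edgeR). FARSB had 1625 and 1591 in PANC-1 and 1395 and 1267 in PZT-2, which was a log2 fold change of -0.27 (adjusted p = 0.0289, edgeR). Neither gene overlapped between the lines. TARS, which charges threonine, was lower by less, at 2958 and 2891 in PANC-1 and 2550.02 and 2495 in PZT-2, which was a log2 fold change of -0.21 (adjusted p = 0.0286, edgeR). Its related gene TARSL2 had 134 to 154 normalized counts in all libraries and overlapped between the lines, with a log2 fold change of 0.08. Reads in sequence shared by related genes such as these were divided between them by kallisto, so the division is uncertain.

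The 3 most abundant transcripts per length, GARS, MARS and CARS, were higher in PANC-1 replicate 1 than in replicate 2. MARS had 7265 and 5583 normalized counts in PANC-1 replicates 1 and 2 and 4707 and 4768 in PZT-2. It did not overlap between the lines, although the PANC-1 replicates were farther apart than the lower of them was from PZT-2, and its log2 fold change was -0.44 ± 0.12 (adjusted p = 0.0331, edgeR). GARS had 8691 and 6040.5 in PANC-1 and 5637 and 5301 in PZT-2. Its log2 fold change of -0.43 ± 0.16 did not pass the test (adjusted p = 0.0857, edgeR), although the lines did not overlap. CARS had 5304 and 3812 in PANC-1 and 4116 and 4197 in PZT-2. The PZT-2 values of CARS fell between the PANC-1 values, with a log2 fold change of -0.13 ± 0.14 (adjusted p = 0.539, edgeR).

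SARS, which charges serine, was the cytosolic gene with the largest fold change that was not called. It had 3651 and 2501 normalized counts in PANC-1 and 2321.5 and 2238 in PZT-2, so that PANC-1 replicate 1 stood far above the other 3 libraries. Its log2 fold change was -0.43 ± 0.16 (adjusted p = 0.0962, edgeR). AARS at -0.31, YARS at -0.21, WARS at -0.18, EPRS at -0.16, NARS at -0.15, DARS at -0.13, LARS and HARS at -0.03 were likewise below 0 and not called. The fold changes of RARS (0.12) and QARS (0.20) were above 0 and not called, with QARS above PANC-1 in both PZT-2 libraries at 2368 and 2386 against 2167 and 1971 (adjusted p = 0.0653, edgeR).

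The multisynthetase complex holds 8 of these enzymes, counting the bifunctional EPRS, which charges glutamate and proline, once. Of them IARS and MARS were called lower, and DARS, EPRS, KARS, LARS, QARS and RARS were not called, with a median over the 8 of -0.08. The cytosolic enzymes outside the complex had 4 of 12 called lower and a median of -0.21. The difference between these lists was not tested. The shares over all genes tested were 13.7% lower and 14.7% higher. By catalytic fold, 4 of 18 class I genes were called lower and 2 higher, and 4 of 18 class II genes were called lower. The bifunctional EPRS was in neither class list. None of the class II genes was called higher by edgeR, DESeq2 or limma, nor was any higher at an unadjusted p under 0.05.

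Of the 16 mitochondrial enzymes, 2 were called lower and 2 higher, shares near those of all genes tested (13.7% and 14.7%), and 12 were not called. LARS2, the mitochondrial leucyl-tRNA synthetase, had 379 and 385 normalized counts in PANC-1 and 589.9 and 569.5 in PZT-2. Both PZT-2 libraries were well above both PANC-1 libraries, and the SD between replicates was 4.10 counts in PANC-1 and 14.5 in PZT-2 (n = 2 each). The log2 fold change of LARS2 was 0.60 ± 0.079 (adjusted p = 0.00289, edgeR), or 1.52-fold higher, the largest change of any synthetase gene. YARS2, for tyrosine, had 533 and 539.5 in PANC-1 and 636 and 643 in PZT-2, without overlap, and a log2 fold change of 0.25 ± 0.072 (adjusted p = 0.0416, edgeR). LARS2 and QARS lie on chromosome 3, where 48.3% of the 835 genes tested were called higher in PZT-2 and the median log2 fold change was 0.43; the part of the chromosome in their values was not tested. YARS2 lies on chromosome 12, where 10.6% were called higher and the median was -0.04.

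CARS2, the mitochondrial cysteinyl-tRNA synthetase, fell from 717 and 679.6 normalized counts to 549 and 566, a log2 fold change of -0.32 (adjusted p = 0.0205, edgeR). SARS2, the most abundant mitochondrial enzyme per length, fell from 1864 and 1878 to 1595 and 1628, a log2 fold change of -0.22 (adjusted p = 0.0322, edgeR). Neither overlapped between the lines. FARS2, which charges phenylalanine in mitochondria, had the largest fold change of any gene not called. It had 207 and 152.7 normalized counts in PANC-1 and 124.8 and 130.5 in PZT-2, which was a log2 fold change of -0.49 ± 0.18 (adjusted p = 0.0853, edgeR). PANC-1 replicate 1 was again the high library, and the lines did not overlap.

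The other 11 mitochondrial genes were not called. NARS2 was at -0.31, WARS2 at -0.24, TARS2 at -0.10, HARS2 at -0.10, VARS2 at -0.07, EARS2 at -0.06, IARS2 and MARS2 at -0.01, and AARS2 at 0.02. PARS2 had 111.7 to 114.8 normalized counts in the 4 libraries, a log2 fold change of -0.00064, and RARS2 was at 0.15. The median log2 fold change over the 16 mitochondrial genes was -0.06.

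KARS, which serves both compartments, had 2718 and 2912 normalized counts in PANC-1 and 2885 and 2988 in PZT-2, with a log2 fold change of 0.06 and overlapping libraries. Of its transcripts in the table, the longer one, known to encode the mitochondrial form, took 18.8% and 17.6% of its counts in PANC-1 and 19.2% and 19.0% in PZT-2. The share held by that transcript thus differed little between the lines, and the cytosolic form took the rest.

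For 16 amino acids both a cytosolic and a mitochondrial gene were among those chosen. They gave 18 pairs because the cytosolic phenylalanine enzyme has separate subunit genes and threonine has TARS and TARSL2. EPRS serves 2 of the 16 amino acids and so stands in 2 pairs. The cytosolic fold change was below the mitochondrial one in 11 of 18 pairs. The widest gap was that of leucine, where LARS changed by -0.03 and LARS2 by 0.60, and the TPM ratio of LARS to LARS2 went from 4.88 and 4.62 in PANC-1 to 3.02 and 3.11 in PZT-2. For tyrosine the ratio of YARS to YARS2 went from 5.78 and 4.40 to 3.56 and 3.78, and for valine that of VARS to VARS2 from 5.82 and 5.91 to 4.49 and 4.79. The ratio was lower in both PZT-2 libraries for 8 of 18 pairs, higher in both for 2 (CARS and HARS) and overlapping for 8. The lower ones were those of AARS, EPRS with EARS2 and with PARS2, IARS, LARS, MARS, VARS and YARS. For single genes in normalized counts, both PZT-2 libraries were below both PANC-1 libraries for 33% of all genes tested and above for 33.3%. No such share was computed for ratios. The ratio of a pair was not tested between the lines.

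The synthetase genes described as ATF4 targets also differed between the PANC-1 replicates. For all 13 genes of that list PANC-1 replicate 1 was above replicate 2, by 0.03 to 0.55 on the log2 scale with a median of 0.37. Over the other 24 synthetase genes the same difference had a median of -0.0046, with 12 of 24 above 0, and between the PZT-2 replicates the medians of both lists were 0.0061 and -0.05. The largest differences were in SARS (0.55), GARS (0.52), WARS (0.49), CARS (0.48), AARS (0.40), MARS (0.38) and YARS (0.37), while TARS and NARS, whose promoters hold the same motif core as MARS, CARS and AARS, differed by 0.03 each. These are values of 1 library against 1 library and have no replicate check.

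Between the lines, the 13 ATF4-linked genes all had a fold change below 0, with a median of -0.21 and 4 called lower (IARS, MARS, TARS, VARS). The other 24 had a median of -0.04 with 4 called lower and 2 higher. Over all genes tested, 13.7% were called lower and 14.7% higher. Not all 13 stayed below 0 without PANC-1 replicate 1, where CARS was at 0.12 and WARS at 0.07. ATF4 protein was not measured here, and the ATF4 transcript did not follow the 13 genes. It had 3645 and 2206 normalized counts in PANC-1 and 4255 and 4411 in PZT-2, which was a log2 fold change of 0.57 (adjusted p = 0.0851, edgeR), with both PZT-2 libraries above both PANC-1 libraries. Without PANC-1 replicate 1 its log2 fold change was 0.97, and without replicate 2 it was 0.24. Each fit without a library holds 1 library of that line and takes the spread between libraries from the other line alone. Calls in such fits therefore leave out the difference between the replicates of the line that lost a library. Of the 10 other ATF4 targets none was called by edgeR, DESeq2 or limma, none had an unadjusted p under 0.05 in edgeR, and the calls without a PANC-1 library went in opposite directions. Without PANC-1 replicate 1, 7 were called higher (against 16.3% of all genes) and none lower. Without replicate 2, 7 were called lower (against 14.8%) and 1, VLDLR, higher. ATF3, CHAC1, PHGDH and TRIB3 were called higher in the former fit and lower in the latter. With all libraries ASNS was at -0.51, TRIB3 at -0.63, CHAC1 at -0.23 and DDIT3 at 0.24. For TRIB3, CHAC1 and DDIT3 the PZT-2 values fell between those of the PANC-1 replicates.

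Leaving out a library changed which synthetase genes were called. Such a fit holds 1 library of a line, so its calls do not include the spread between the replicates of that line. Without PANC-1 replicate 2, GARS was at -0.68, SARS at -0.69, AARS at -0.50, CARS at -0.36, WARS at -0.41 and YARS at -0.40. Without PANC-1 replicate 1, the same genes stood at -0.15 for GARS, -0.14 for SARS, -0.10 for AARS, 0.12 for CARS, 0.07 for WARS and -0.02 for YARS. MARS was called in both of these fits, at -0.62 and -0.24, but lost the call without either PZT-2 library (adjusted p = 0.112 and 0.118, edgeR) and was called in 8 of 14 alternatives, not in DESeq2 or limma. The genes called higher were LARS2 with QARS in the fit without PANC-1 replicate 1 (16.3% of all genes) and LARS2 with RARS in that without replicate 2 (16% of all genes). Without PZT-2 replicate 1, IARS and VARS were called lower (7.96% of all genes) and LARS2 higher (8.7%), and without PZT-2 replicate 2, VARS lower (6.35%) and LARS2 higher (7.37%). YARS2 was not called in any of these 4 fits. VARS stayed between -0.43 and -0.40 and LARS2 between 0.57 and 0.63 in these 4 fits, and IARS between -0.49 and -0.34.

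The other genes of tRNA charging and elongation were compared in the same fit. Of 40 genes in 8 lists, 5 were called higher and 5 lower, shares near the 14.7% and 13.7% of all genes tested, with a median log2 fold change of -0.05. AIMP2, a scaffold of the multisynthetase complex, had 1588 and 1553 normalized counts in PANC-1 and 955 and 944 in PZT-2. This drop to well below both PANC-1 libraries was a log2 fold change of -0.72 ± 0.059 (adjusted p = 0.00063, edgeR), larger than that of any synthetase gene called lower. The other scaffolds were not called, AIMP1 at -0.15 and EEF1E1 at 0.27. AIMP2, EEF1A1 and GFM1 were called whichever library was left out, whereas the other called genes of these lists lost the call without at least 1 library.

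Some of the genes listed as elongation factors deliver charged tRNA to the ribosome or move the ribosome on. Of those listed, EEF1A1 (-0.39) and EEF1D (-0.31) of the cytosol and TUFM (-0.24) of mitochondria were called lower. EEF1A1 had 197148 and 182650 normalized counts in PANC-1 and 146971 and 143576 in PZT-2, without overlap. The mitochondrial translocation factor GFM1 was called higher at 0.65, from 707 and 850.4 to 1183 and 1259.6, and the recycling factor GFM2 at 0.37. GFM1 is on chromosome 3 like LARS2.

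The remaining called genes were DTD1 (0.50), which removes D-amino acids from tRNA, SEPHS2 (0.41) and SEPHS1 (-0.31), selenophosphate synthetase genes, and EIF2AK4 (0.34), the kinase that senses uncharged tRNA. EIF2AK4 had 855 and 1007 normalized counts in PANC-1 and 1173 and 1186 in PZT-2. It lies on chromosome 15, where 27.4% of the genes tested were called higher in PZT-2 and the median log2 fold change was 0.24. The part of the chromosome in its value was not tested. None of the 4 mitochondrial charging partners (QRSL1, GATB, GATC and MTFMT) was called by edgeR, DESeq2 or limma, with fold changes of -0.24 to 0.25, and GATC alone had an unadjusted p under 0.05. None of the 11 tRNA maturation and export genes listed was called by edgeR, DESeq2 or limma. They ranged from ELAC1 at -0.18 to TRNT1 at 0.47. TRNT1, on chromosome 3 like LARS2, alone had an unadjusted p under 0.05. Without PANC-1 replicate 1 TRNT1 was called, and without replicate 2 POP1 and SSB were.

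**Figure D3:**
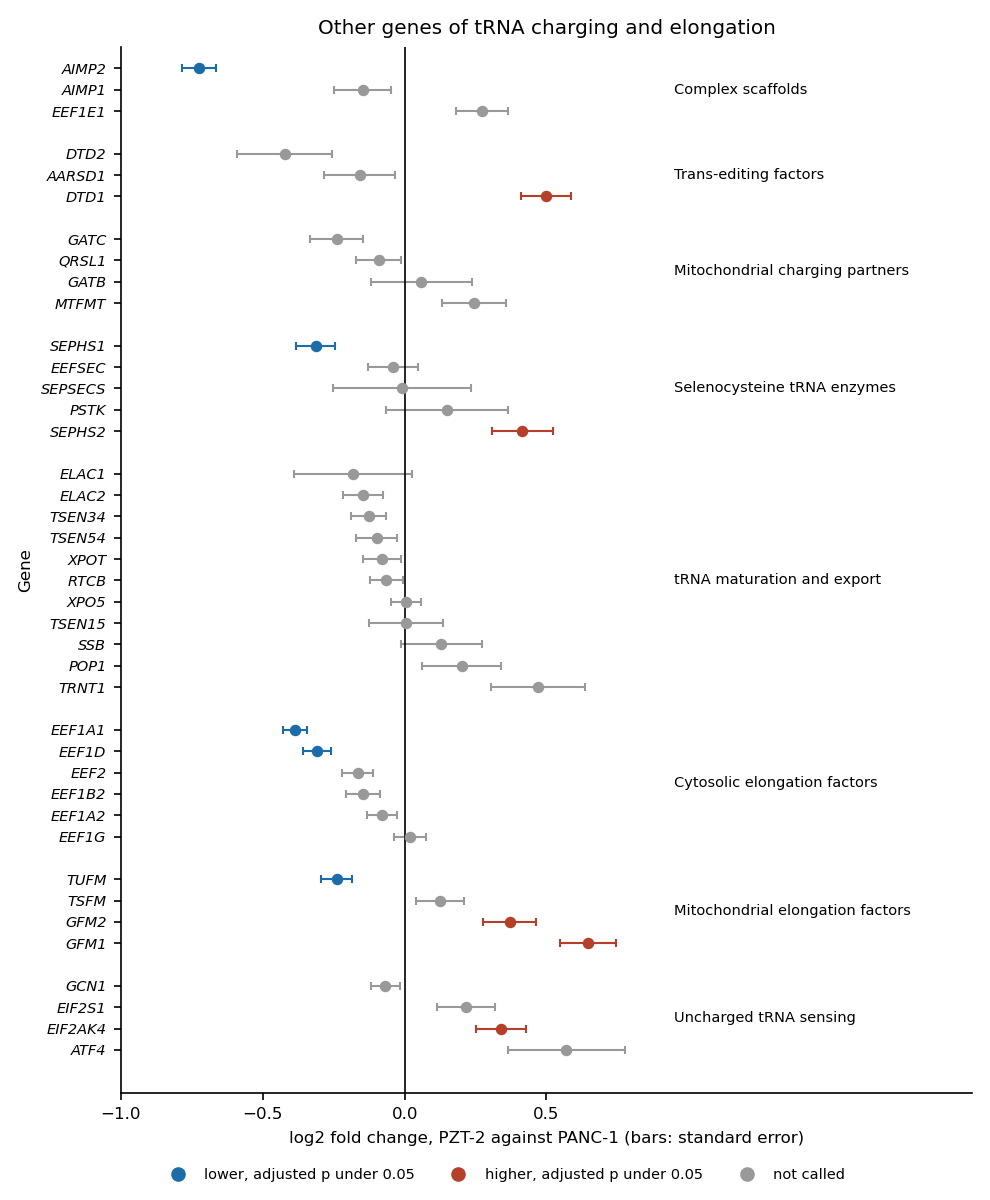
log2 fold change with its standard error (edgeR, PZT-2 against PANC-1) of 40 other genes of tRNA charging and elongation in 8 lists. AIMP2 lies lowest at -0.72 and GFM1 highest at 0.65.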

How the data were processed

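The authors made stranded mRNA libraries, trimmed paired reads with Trim Galore 0.4.1 and estimated transcript abundance with kallisto 0.43.0 on RefSeq transcripts; sleuth 0.29.0 exported the table. The processing notes name hg19. The deposited estimated counts carry 1 factor per library (1.16 and 0.935 in PANC-1, 1.03 and 1.01 in PZT-2), which was undone: 41.1% to 42.8% of values from 0.5 to 30 in genes with 1 transcript were then whole to within 0.01, against 0.917% to 2.39% as deposited. The deposited TPM column also carried the factor, so TPM were recomputed from counts and effective lengths. The authors' comparison columns (p and q values, effects) were not used.

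Of 31077 transcripts, 27049 were assigned to genes by the symbols in the table, 3925 by accession in the GRCh38.p14 annotation, and 103 with 0.0467% of the counts stayed unnamed. Counts were summed per gene, rounded and kept at 5 or more in at least 2 of 4 libraries. They were tested with edgeR 4.0.16 (TMM, quasi-likelihood test, R 4.3.3) and Benjamini-Hochberg adjustment over 15089 genes. The scripts were tested on simulated data, in which the known fold changes were recovered. More of the simulated calls were false than the adjusted threshold of 0.05 allows. Calls near it are therefore less certain than their adjusted p states. Alternatives used DESeq2 1.42.0 and limma 3.58.1. Library values differ beyond sampling noise between replicates in both lines (chi-square per gene 5.91 and 3.38). Chromosomes and promoters are from RefSeq GRCh38.p14.

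Members and lists were chosen with earlier results of these data known. By rule, values per library were given for called members with an absolute log2 fold change of 0.5 or more, the 3 of highest TPM, and the 2 not called with the largest fold change. Values for the other members were added after results were seen. The result of 1 other pathway gene is not reported here.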

Additional observations from a re-analysis of the deposited data

How the results depend on the processing

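Over the 37 synthetase genes, 14 alternatives gave 518 values, of which 466 kept their side of the threshold, 36 were no longer called and 16 became called. VARS and LARS2 were called in all 14. No called gene changed sign, whereas 12 genes that were not called did in at least 1 alternative, CARS and WARS among them. DESeq2 called 6 genes lower, 5 cytosolic and 1 mitochondrial, and 1 mitochondrial gene higher (LARS2) of 3224 genes called in all, and MARS, CARS2 and YARS2 lost their calls. With at least 10 counts in all 4 libraries, 1 cytosolic gene (QARS) was called higher. limma on log2(TPM + 1) and on log2(TPM + 0.1) each called 4 genes lower, 3 of them cytosolic and 1 mitochondrial, and 3 genes higher, the cytosolic QARS (1 gene) and the mitochondrial LARS2 and YARS2, with medians of -0.12 for cytosolic genes in both and of -0.0054 and -0.0055 for mitochondrial genes. The most abundant transcript alone gave 4 genes lower (3 cytosolic, 1 mitochondrial), 1 mitochondrial gene higher and 2129 genes called in all. Only transcripts named by the table, an alternative chosen after seeing the data, gave a mitochondrial median of -0.032. Leaving out each library gave 1 to 16 genes lower, 1 to 2 higher, 1 to 12 cytosolic lower, 0 to 1 cytosolic higher, 0 to 3 mitochondrial lower, 1 mitochondrial higher, and 2034 to 4580 genes called, with medians of -0.30 to -0.13 (cytosolic) and -0.082 to -0.028 (mitochondrial). Over all genes the median log2 fold change was 0.000736 in edgeR, 0.045 in limma on log2(TPM + 1) and 0.057 on log2(TPM + 0.1). In the limma fits the synthetase medians thus moved in the same direction as that of all genes. The cause of the changes between alternatives was not tested. Leaving a library out removes a sample and also takes the spread between libraries from the other line alone. The PANC-1 replicates differed more from each other (chi-square per gene 5.91) than the PZT-2 replicates did (3.38).

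With the replicate number as a block, 3736 genes were called in all. Of the synthetase genes, 7 were called lower and 1 higher, among them 1 mitochondrial gene lower and 1 higher, and GARS became called. Deviations of equal-numbered libraries had a correlation of -0.0258 across genes. That value shows no shift shared by equal-numbered libraries, but it cannot show whether the libraries were handled in pairs.

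WARS2, TARSL2 and PARS2 had at most 154 normalized counts and standard errors of 0.13 to 0.19, and GARS and SARS, among the most abundant, had 0.16 each.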

Other observations

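The table also gives the transcripts of each gene, 85 for the synthetase genes, with 1 to 12 each. EARS2, which charges glutamate in mitochondria, kept a similar total in both lines, but its non-coding transcript NR_003501 held 30.0 and 17.6 normalized counts in PANC-1 and 103.8 and 191.1 in PZT-2. That was 3.15% and 1.85% of the counts of EARS2 in PANC-1 and 11.4% and 20.8% in PZT-2. Both PZT-2 libraries were above both PANC-1 libraries, and the other transcript, NM_001083614, fell from 924 and 936 to 809 and 729.

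For IARS, the non-coding transcript NR_073446 was at 0 in both PANC-1 libraries and had 60.6 and 21.0 normalized counts in PZT-2, or 1.80% and 0.648% of the counts of the gene. The transcripts of GARS kept similar shares, with NM_001316772 at 10.6% and 16.3% in PANC-1 and 16.2% and 15.2% in PZT-2. No test was made of these values, which were named after they were seen, and kallisto's division of reads among transcripts of a gene is uncertain.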
